A study of Ovis aries with 26 samples.

Results

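The transcripts of 9 genes of the Polycomb repressive complexes were followed from the sheep oocyte to the expanded blastocyst. They were taken by name: EZH1, EZH2, EED, SUZ12 and JARID2 of Polycomb repressive complex 2 (PRC2), and RING1, RNF2, BMI1 and PCGF6 of Polycomb repressive complex 1 (PRC1). All 9 were among the 30186 genes of the table and among the 15766 genes tested. The 26 libraries came from mature oocytes (labelled MII, for the second meiotic metaphase; 2 libraries), from embryos at the 2C (4), 4C (3), 8C (4) and 16C (3) stages, where C stands for cells, and from morulae (Morula, 3), early blastocysts (EarlyB, 3) and expanded blastocysts (ExpB, 4). All embryos were made by in vitro fertilization of matured oocytes and grown in culture, with no treatment and no genetic change named. Poly(A) RNA of directly lysed oocytes or embryos was copied with Smart-seq2, which amplifies full-length cDNA from very little RNA. The number of oocytes or embryos behind a library, the breed and the animals behind it are not stated in the labels. The p-values therefore reflect the spread among these libraries alone, and that spread may be technical.

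Polycomb proteins hold developmental genes silent. PRC2 places methyl groups on lysine 27 of histone H3 through EZH2 or its relative EZH1, and neither works without the subunits EED, which binds the finished mark, and SUZ12, the scaffold of the complex. JARID2 is an accessory subunit that brings PRC2 to chromatin. PRC1 attaches ubiquitin to histone H2A through RNF2 or its relative RING1, each paired with one PCGF protein. BMI1 is a PCGF protein of canonical PRC1, which reads the mark of PRC2, and PCGF6 belongs to a variant PRC1 that does not need that mark. In the mouse, oocytes load the embryo with Polycomb products before the embryonic genome is switched on, and PRC2 of the oocyte leaves marks that persist in the early embryo.

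Levels are in FPKM, the fragments of a gene per kilobase of its length for each 1e6 fragments assigned in the library, given per library in the order of the replicate numbers or as mean ± SD. Reads assigned to genes, recovered from the steps of the values, ranged from 16.0 to 35.6 in units of 1e6 per library, with 16 to 19.9 in EarlyB and 19.3 to 25.4 in ExpB. Differences are on the scale of log2(FPKM + 1), later minus earlier stage, which compresses the changes of low genes, those around 1 FPKM and less. A gene is called, and described as rising or falling, when limma gave an adjusted p under 0.05 and a difference of 1 or more in size. The gene lengths behind the FPKM were found for 5 of the 9 genes and bear on any comparison between genes: 11183 bases for EZH1, 5871 for EZH2, 3435 for BMI1, 1719 for RING1 and 1712 for EED. The stage labels fitted their markers. The summed FPKM of 9 oocyte markers (among them GDF9, ZP2 and BTG4) was 6296 to 6612 in MII and 3.21 to 13.5 in ExpB. That of 11 trophectoderm markers (among them CDX2, KRT8 and KRT18) was 12.6 to 15.5 in MII and 3353 to 7549 in ExpB. Both blastocyst stages also held transcripts listed as markers of the inner cell mass and primitive endoderm (9 genes, 186 to 242 in EarlyB and 157 to 236 in ExpB). Their sum was already 65.33 to 66.99 in MII and 69.64 to 130.3 at 8C. GDF3 had the highest mean of them in MII and ExpB (60.2 and 94.7). Means of POU5F1 (1.16 and 35.3), NANOG (0 and 19.6) and GATA6 (0.0204 and 27.8) were higher in ExpB than in MII. SOX2 averaged 0.0599 in ExpB. Blastocyst values are therefore taken as those of mixed cells, which was not tested. Early embryos also held transcripts listed as markers of cumulus and granulosa cells, the somatic cells around the oocyte. The sum over 12 markers was 17.8 to 25.1 in MII, 47.9 to 236 at 2C, 146 to 553 at 4C and 13.7 to 22.7 in ExpB. LUM had the highest mean of them at 2C and 4C (103 and 181), while the granulosa marker AMH averaged at most 0.214 at any stage. Sperm markers (7) summed to at most 1.80 up to 16C and to 9.75 to 13 in morulae, where PRM2, listed at 0 at every earlier stage, averaged 9.02. The library 16C 3 stood apart from 16C 1 and 16C 2 (Pearson r = 0.913 and 0.923 across tested genes, against 0.962 between those). In whole embryos, fewer cells with a transcript and less of it per cell cannot be told apart.

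Of the successive steps, that from the 16C embryo to the morula had the most calls among the Polycomb genes, in both directions. The PRC1 genes BMI1 and PCGF6 and the PRC2 genes SUZ12 and EZH2 rose, while RNF2 and JARID2, both abundant in the oocyte, fell. These were 6 of 9 genes, 4 higher and 2 lower, where 43.1% of all 15766 tested genes were called (28.1% higher and 15% lower). The median difference of the 9 was 1.04, beside 0.32 over all genes. Between 8C and Morula, which spans the activation of the embryonic genome, 5 rose and 2 fell, where 49.7% of all genes were called (30.6% higher and 19.1% lower). From MII to ExpB 4 rose and 2 fell, where 53.7% were called (32.8% higher and 20.9% lower). Before the 16C stage few calls were made. At 2C against MII 1 gene rose and 1 fell, where 6.45% of all genes were called (4.44% higher and 2.01% lower). At 4C against 2C limma called 0 of 9, where 0.00634% of all genes were called, all of them higher and 0% lower. At 8C against 4C it called 0 of 9, where 0.907% were called (0.577% higher and 0.33% lower). In each of these steps 1 of the 9 had an unadjusted p under 0.05, BMI1 both times. At 16C against 8C 1 gene rose, where 7.55% were called (5.54% higher and 2.01% lower). At EarlyB against Morula 2 rose and 2 fell, where 27% were called (14.7% higher and 12.4% lower). Of those that rose, RING1 passed the filter through EarlyB alone. At ExpB against EarlyB 1 fell, where 17.7% were called (4.65% higher and 13.1% lower). The contrasts share libraries, since every stage enters at least 2 of them.

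Over all 8 stages 8 of the 9 genes differed by limma's moderated F test, as did 93.7% of all genes. The exception was EZH1 (adjusted p = 0.094). RING1 reached the minimum level for testing in the 3 EarlyB libraries alone, so it had to be high in EarlyB to be tested. EZH1 reached it in 1 library of 16C, 3 of EarlyB and 1 of ExpB. Other scalings of the libraries moved the median difference of all genes from 16C to Morula by -0.18 (TPM), -0.14 (median ratio) and -0.33 (quantile). In that step 3 of the Polycomb genes were then higher and 2 lower on the TPM scale and with quantile normalization, and 2 and 2 with median ratios. Over all genes 4353 were higher and 3522 lower of 17979 on the TPM scale. They were 3687 and 2716 of 15372 with median ratios and 3054 and 3263 of 15766 with quantiles. From 8C to Morula 4 of the 9 were higher and 2 lower with each of the 3, and from MII to ExpB 4 and 2 as before. From 8C to Morula all genes gave 4823 higher and 4583 lower with TPM, 4273 and 3205 with median ratios and 3580 and 4058 with quantiles. From MII to ExpB they gave, in the same order, 5227 and 4361, 4828 and 3795, and 4073 and 4266. For EarlyB against Morula the split of the 9 was 2 and 2 on the TPM scale, 1 higher and 2 lower with median ratios and 1 and 1 with quantiles. That of all genes was 2447 and 2514, 1849 and 2036, and 2026 and 2035. For ExpB against EarlyB the split of the 9 was 0 and 2 on the TPM scale and 1 and 0 with the other scalings. All genes gave 843 and 2365 with TPM, 1225 and 911 with median ratios and 1256 and 1049 with quantiles. For 2C against MII the split of the 9 was 2 and 1 on the TPM scale and 0 and 1 with the others. All genes gave 1332 and 292 with TPM, 415 and 602 with median ratios and 361 and 443 with quantiles. For 16C against 8C the split of the 9 was 2 and 1 with TPM, 2 and 0 with median ratios and 1 and 1 with quantiles. That of all genes was 998 and 778, 940 and 219, and 836 and 343.

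**Figure D1:**
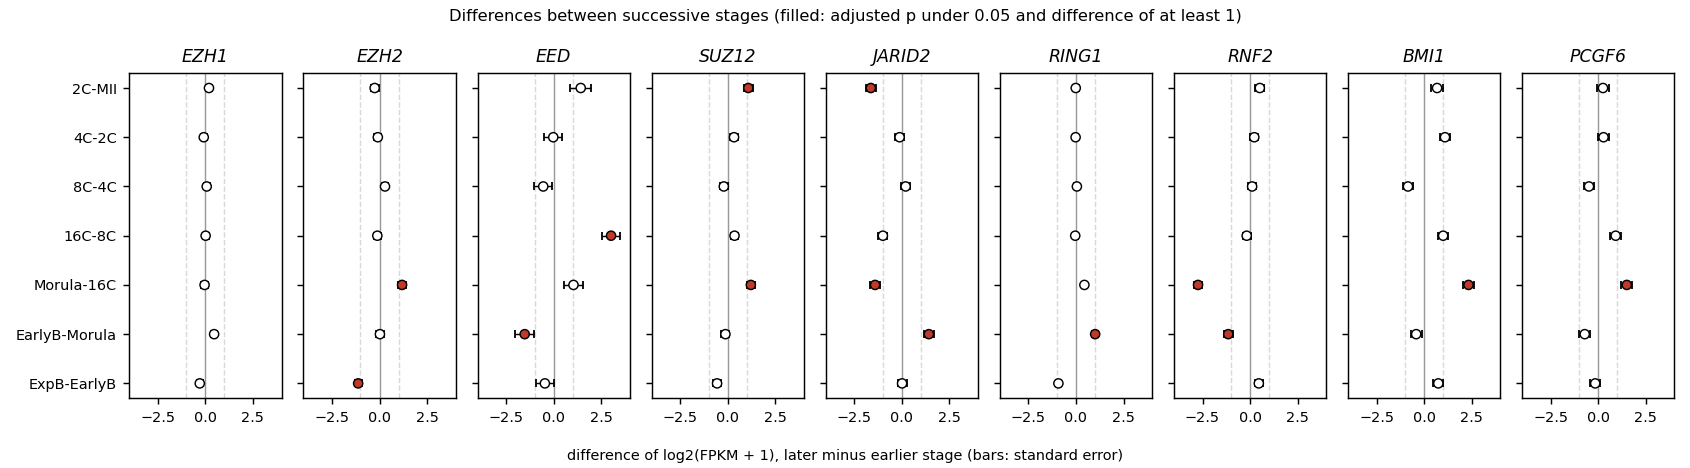
Difference of log2(FPKM + 1) between successive stages for each of the 9 genes (x axis, later minus earlier stage, with its standard error), with 1 panel per gene and 1 row per step; filled points had an adjusted p under 0.05 and a difference of at least 1. The row of Morula against 16C holds 6 filled points, the most of any row, with RNF2 and JARID2 to the left and EZH2, SUZ12, BMI1 and PCGF6 to the right of 0.

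The catalytic genes of PRC2 stood at 5.08 FPKM or less in every library. Among the tested genes the stage means of EZH2 lay between the 36.4 (ExpB) and 52.3 (Morula) percentile. Those of EZH1 lay between 19.7 (Morula) and 37.3 (MII). EZH2, the main H3K27 methyltransferase of dividing cells, stood at 1.55 and 1.17 FPKM in MII, 0.928, 1.25, 0.734 and 1.01 at 2C, 0.698, 0.733 and 1.16 at 4C, 1.71, 0.889, 1.01 and 1.54 at 8C and 1.14, 1.26 and 0.874 at 16C. It then stood at 3.08, 3.3 and 5.08 in morulae, 4.05, 3.73 and 3.67 in EarlyB and 1.83, 1.25, 0.795 and 1.09 in ExpB. Every Morula and EarlyB library was above every other library, and ExpB libraries overlapped those from MII to 16C. EZH2 rose from 16C to Morula by 1.18 (SE 0.19, adjusted p = 1.5e-05), with a mean 3.50 times as high, and fell from EarlyB to ExpB by 1.12 (SE 0.18, adjusted p = 4.3e-05). Between Morula and EarlyB the difference was 0.02 (SE 0.19, adjusted p = 0.95). Against 8C the Morula difference was 1.07 (SE 0.18, adjusted p = 1.6e-05). These are differences of a gene near 1 FPKM, and their size lies close to the threshold: it was under 1 once the libraries were scaled by median ratios (0.99 for Morula against 16C and -0.83 for ExpB against EarlyB) or by quantiles (0.72 and -0.68), with adjusted p of at most 0.0045 each time. Against 8C it was under 1 with each of the 3 scalings, without 8C 2 (0.98) and without Morula 3 (0.89). The reads behind these values were 165 to 231 per library at 16C, 497 to 772 in morulae and 114 to 207 in ExpB.

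EZH1, the relative of EZH2 that is known from resting cells, was called in none of the 9 contrasts. Its levels were 0.470 and 0.603 in MII, 0.571 to 0.883 at 2C, 0.481 to 0.754 at 4C, 0.446 to 0.923 at 8C, 0.539 to 1.12 at 16C and 0.553 to 0.790 in morulae. In EarlyB it stood at 1.32, 1.66 and 1.02 and in ExpB at 1.38, 0.633, 0.805 and 0.801. The largest difference between successive stages was 0.46 (SE 0.17, adjusted p = 0.03) at EarlyB against Morula, and every EarlyB library was above every Morula library. Between 143 and 429 reads lay behind each EZH1 value. EZH1 made up 43.2% ± 7.55 of the summed FPKM of EZH1 and EZH2 at 4C (mean ± SD, n = 3), 16.1% ± 5.56 in morulae (n = 3) and 42.4% ± 6.81 in ExpB (n = 4).

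EED had the largest difference of the PRC2 genes between 8C and Morula. This WD40 protein binds trimethylated H3K27 and switches on the enzyme next to it. Its FPKM was 1.68 and 5.05 in MII, 7.37, 11.3, 10.5 and 10.5 at 2C, 10.1, 8.98 and 9.89 at 4C and 11.5, 1.83, 8.06 and 7.85 at 8C. At 16C it was 29.1, 40.8 and 163, in morulae 121, 78.9 and 184, in EarlyB 44.2, 36.9 and 43.4 and in ExpB 21.6, 39.7, 20.9 and 43.7. All 16C and Morula libraries lay above all earlier ones, and the library 16C 3 lay at the level of morulae, far above 16C 1 and 16C 2. EED rose from 8C to 16C by 3.02 (SE 0.48, adjusted p = 0.00011), which was 10.6-fold in the mean. It was the 1 gene of the 9 called in that step. Without 16C 3 the call was also made, with a mean 4.79-fold that of 8C (difference 2.28, adjusted p = 0.0012), and it ended when those 2 stages were fitted alone (adjusted p = 0.1). From 16C to Morula the difference was 1.04 (SE 0.52, adjusted p = 0.082), not called, and without 16C 3 it was 1.78 (adjusted p = 0.0021). From 8C to Morula EED rose by 4.06 (SE 0.48, adjusted p = 1.1e-07), 17.5-fold. It then fell into EarlyB by 1.52 (SE 0.52, adjusted p = 0.018), a call that ended without Morula 3 (adjusted p = 0.091) or EarlyB 2 (adjusted p = 0.055). ExpB stayed above MII by 2.94 (SE 0.55, adjusted p = 4.9e-05), or 2.35 without MII 1 and 3.53 without MII 2.

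SUZ12, the scaffold of PRC2, rose at 2C and again in the morula. It stood at 7.72 and 10.3 FPKM in MII and 20.0, 19.8, 21.5 and 18.6 at 2C, with no overlap, and the rise was 1.08 (SE 0.22, adjusted p = 0.0027). Without MII 1, which left 1 oocyte library, the difference was 0.90. It was also under 1 when scaled by median ratios (0.84) or quantiles (0.76). From 2C to 16C its libraries lay between 18.6 and 33.5. In morulae it stood at 85.1, 46.9 and 74.7, in EarlyB at 62.9, 59.3 and 61.9 and in ExpB at 30.5, 49.9, 37.2 and 51.1, and every Morula and EarlyB library was above every library up to 16C. SUZ12 rose from 16C to Morula by 1.21 (SE 0.21, adjusted p = 2.9e-05), under 1 on the TPM scale (0.85) and by median ratios (0.98), and from 8C to Morula by 1.57 (SE 0.20, adjusted p = 2.2e-07). ExpB against MII gave 2.09 (SE 0.22, adjusted p = 1.6e-08), with a mean 4.69 times as high. Per length, SUZ12 was far above the enzyme gene it binds: the ratio of its FPKM to that of EZH2 within a library ranged from 4.99 to 46.8 over the 26 libraries.

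JARID2 fell from 16C to Morula, where SUZ12 and EZH2 rose. This DNA-binding partner of PRC2 stood at 215 and 90.7 FPKM in MII, the highest of the 5 PRC2 genes in both oocyte libraries. It was at 53.8, 44.2, 40.8 and 40.3 at 2C, 37.8 to 42.8 at 4C and 32.6 to 58.2 at 8C. At 16C it was 25.4, 22.6 and 21.5 and in morulae 10.2, 7.81 and 6.60, below every other library. It returned to 20.3, 22.6 and 27.7 in EarlyB and 26.4, 25.0, 19.8 and 23.5 in ExpB, the level of 16C. JARID2 fell from MII to 2C by 1.63 (SE 0.27, adjusted p = 0.00036), but the oocyte libraries stood far apart. The difference was -1.01 without MII 1, which left 1 oocyte library, so no call is read from that fit. The call ended when those 2 stages were fitted alone (adjusted p = 0.059). From 8C to 16C the difference was -0.998 (SE 0.23, adjusted p = 0.0048), just short of the threshold of size, and it passed with the replicate block (-1.02). JARID2 fell from 16C to Morula by 1.41 (SE 0.25, adjusted p = 4.3e-05) and rose from Morula to EarlyB by 1.42 (SE 0.25, adjusted p = 7.3e-05). The mean of 8C was 5.89-fold that of morulae and the difference -2.41 (SE 0.23, adjusted p = 5.2e-09). The Morula libraries, lowest for JARID2, had the highest means for EED and SUZ12. The strand setting of the counting is not stated, and a small nuclear RNA gene lies within JARID2 in the sheep reference gene table, while no other gene there overlaps any of the 9.

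**Figure D2:**
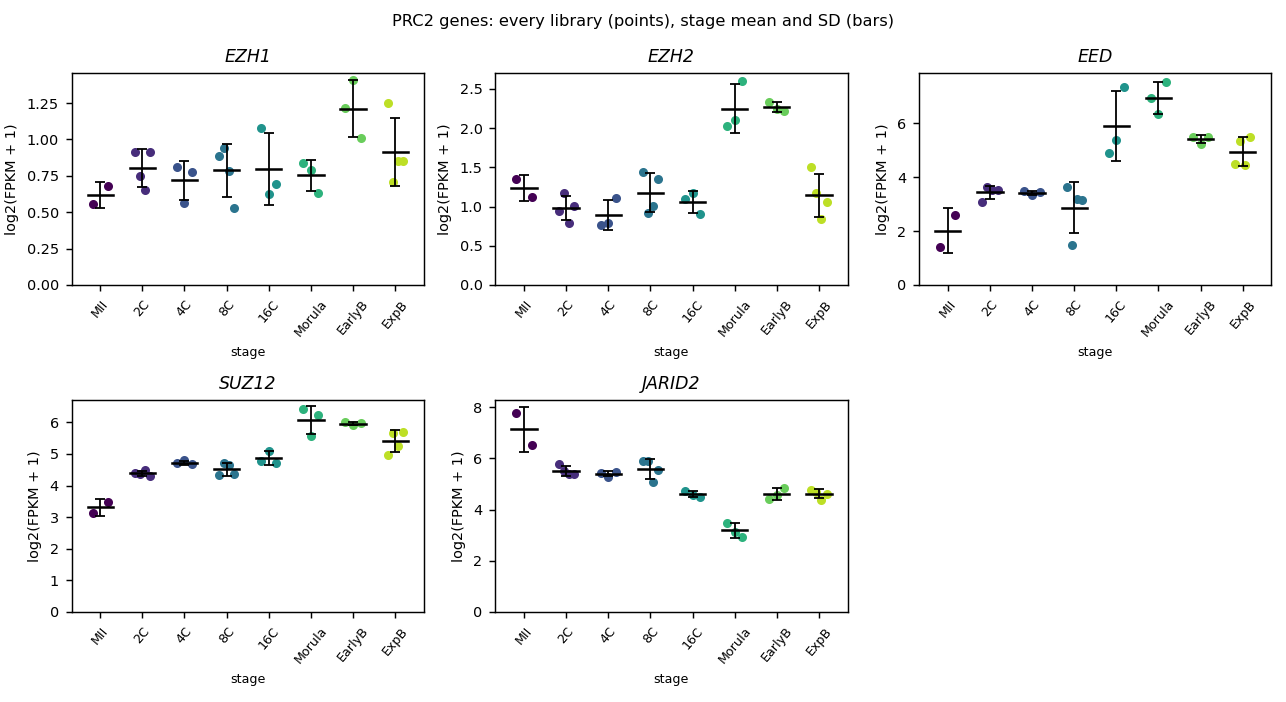
Levels of the 5 PRC2 genes as log2(FPKM + 1) (y axis, own scale per gene) by stage (x axis); points are libraries, the long bar is the stage mean and the error bar the SD. EED is higher at 16C and in morulae than before, the EZH2 libraries of Morula and EarlyB lie above those of the other 6 stages, and JARID2 has its lowest libraries in morulae.

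RNF2, the main ubiquitin ligase of PRC1, was abundant up to 16C and fell in the morula. It stood at 308 and 362 FPKM in MII, 461, 446, 478 and 525 at 2C, 493, 580.5 and 601 at 4C and 613, 567, 598 and 619 at 8C. The 2C libraries were above both MII libraries, with a difference of 0.51 (SE 0.24, adjusted p = 0.2), not called. At 8C its mean was at the 99.4 percentile of the tested genes. At 16C it was 632, 618 and 380.5, the lowest value again in 16C 3. In morulae it was 95.4, 58.5 and 87.1, in EarlyB 40.1, 32.7 and 32.5 and in ExpB 31.4, 62.2, 49.8 and 56.2. Every library up to 16C was above every later library, the closest being 308 in MII 1 and 95.4 in Morula 1. RNF2 fell from 16C to Morula by 2.74 (SE 0.23, adjusted p = 1.2e-09), so that the 16C mean was 6.77-fold the Morula mean. It fell again into EarlyB by 1.15 (SE 0.23, adjusted p = 0.00024), a size under 1 with quantile normalization (-0.90). From EarlyB to ExpB the difference was 0.46 (SE 0.21, adjusted p = 0.088). In ExpB its mean was still at the 91.2 percentile of the tested genes. The summed oocyte markers were also lower at these steps, at 3707 to 4495 at 16C, 391 to 527 in morulae and 63.7 to 121 in EarlyB, and RNF2 stood at 31.4 or more in ExpB, where the marker sum was 13.5 or less.

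RING1, the relative of RNF2, was almost undetected before the morula. Its FPKM was 0.0428 and 0 in MII, listed at 0 in all 3 4C libraries, and at most 0.0818 in any library up to 16C. In reads, 10 of the 16 libraries from MII to 16C had 0 and the others 1 to 5, 14 in all, where a count of 0 allows up to 3 reads, an FPKM of 0.0495 to 0.0575 (counting error only). In morulae it was 0.402, 0.516 and 0.202, in EarlyB 1.27, 2.32 and 1.75 and in ExpB 0.813, 0.297, 0.476 and 0.274, from 9 to 64 reads per library. All 10 later libraries were above all 16 earlier ones, and the EarlyB libraries were the highest. RING1 passed the filter for testing through its EarlyB libraries alone, so its p-values against EarlyB are no independent support for a high level there. It rose from Morula to EarlyB by 1.01 (SE 0.14, adjusted p = 5.9e-06). This size sits on the threshold and was under it when scaled by median ratios (0.85) or quantiles (0.70), and also without Morula 3 (0.92) and without EarlyB 2 (0.87). ExpB against EarlyB gave -0.92 (SE 0.13, adjusted p = 1.4e-05), and Morula against 16C 0.44 (SE 0.14, adjusted p = 0.01), neither called at a pseudocount of 1. With a pseudocount of 0.1 both were called (-1.79 and 2.1).

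BMI1, a PCGF protein of canonical PRC1 known for repressing the INK4A locus, rose more than any other of the 9 genes from MII to ExpB. It stood at 0.0963 and 0.415 FPKM in MII, 2.15, 0.931, 0.480 and 0.749 at 2C, 3.72, 2.80 and 3.28 at 4C, 1.47, 1.29, 1.65 and 1.06 at 8C and 2.45, 3.81 and 5.25 at 16C. In morulae it stood at 30.3, 16.8 and 22.6, in EarlyB at 16.7, 16.4 and 16.8 and in ExpB at 17.0, 40.9, 28.8 and 32.7, and all these libraries were above all earlier ones. BMI1 rose from 16C to Morula by 2.33 (SE 0.29, adjusted p = 3.9e-07), 6.06-fold in the mean, from 8C to Morula by 3.33 (SE 0.27, adjusted p = 3.1e-10), 17.0-fold, and from MII to ExpB by 4.57 (SE 0.31, adjusted p = 7.1e-12). All 3 calls were made under every alternative. Before that, the 4C libraries were above all 2C and 8C libraries, with differences of 1.09 (SE 0.27, adjusted p = 0.11) from 2C to 4C and -0.85 (SE 0.27, adjusted p = 0.11) from 4C to 8C. Neither was called, and without 2C 1 the first was (1.31, adjusted p = 0.027). The highest cumulus and granulosa marker sum was also at 4C (553 in 4C 1), and the part of such cells in these values was not tested. From 8C to 16C the difference was 0.996 (SE 0.27, adjusted p = 0.013), short of the threshold of size, and it passed on the TPM scale (1.11) and with median-ratio scaling (1.03).

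PCGF6, of a variant PRC1 that silences germline genes in embryonic stem cells, stood at 7.77 and 11.4 FPKM in MII, 15.8, 10.6, 10.2 and 9.81 at 2C, 12.2 to 15.2 at 4C and 5.55 to 14.6 at 8C. At 16C it was 13, 14.9 and 35.2, again with 16C 3 apart. In morulae it was 64.3, 45.5 and 59.0, in EarlyB 31.7, 35.6 and 33.5 and in ExpB 26.7, 34.1, 28.2 and 30.8. Morulae were above all other libraries, and ExpB and EarlyB libraries overlapped. PCGF6 rose from 16C to Morula by 1.5 (SE 0.30, adjusted p = 0.00015), 2.67-fold in the mean and 4.02-fold without 16C 3, and from 8C to Morula by 2.41 (SE 0.28, adjusted p = 7.1e-08). The difference from Morula to EarlyB was -0.71 (SE 0.30, adjusted p = 0.052), not called. ExpB was above MII by 1.56 (SE 0.32, adjusted p = 0.00013). From 8C to 16C the difference was 0.91 (SE 0.28, adjusted p = 0.027), not called, and it passed without 8C 1, 16C 1 or 16C 2, with sizes of 1.08 to 1.17.

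**Figure D3:**
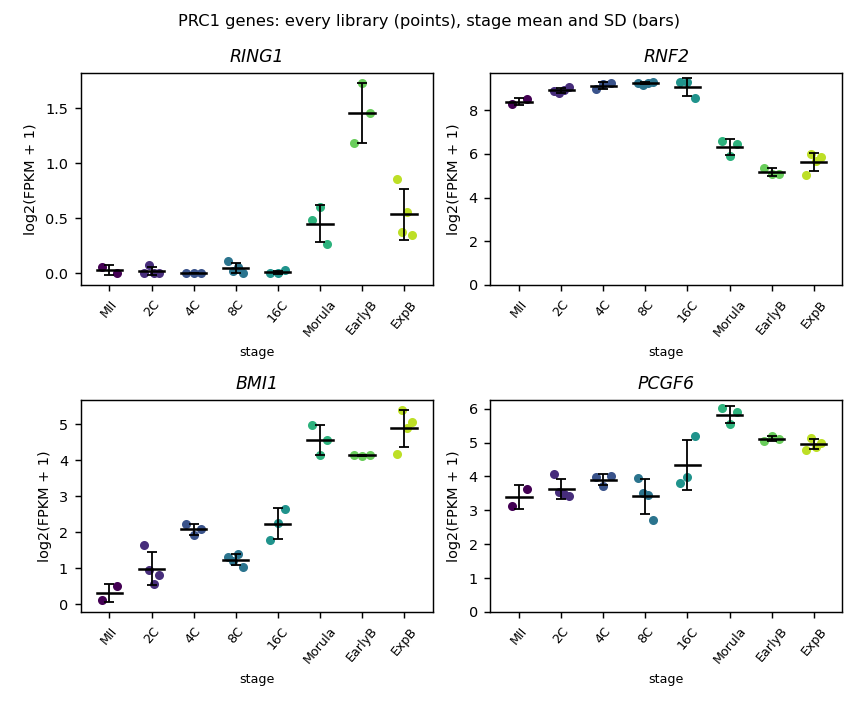
Levels of the 4 PRC1 genes as log2(FPKM + 1) (y axis, own scale per gene) by stage (x axis); points are libraries, the long bar is the stage mean and the error bar the SD. RNF2 is lower in Morula than at 16C, where BMI1, PCGF6 and, at much lower levels, RING1 have higher means than at any stage before.

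The stages were ordered from the highest to the lowest mean level of each gene, and neighbours in that order were compared by the ranges of their libraries, as a description. For EZH2 it was Morula, EarlyB, MII, 8C, ExpB, 16C, 2C and 4C, with no overlap between EarlyB and MII. For EZH1 it was EarlyB, ExpB, 16C, 2C, 8C, Morula, 4C and MII, and all neighbours in it overlapped. For EED it was Morula, 16C, EarlyB, ExpB, 2C, 4C, 8C and MII, with no overlap between ExpB and 2C. For SUZ12 it was Morula, EarlyB, ExpB, 16C, 4C, 8C, 2C and MII, with no overlap between EarlyB and ExpB, nor between 2C and MII. For JARID2 it was MII, 8C, 2C, 4C, ExpB, EarlyB, 16C and Morula, with no overlap between MII and 8C, nor between 4C and ExpB, nor between 16C and Morula. All other neighbours of these PRC2 genes overlapped. MII was lowest for EZH1, EED and SUZ12 and highest for JARID2. For RNF2 it was 8C, 4C, 16C, 2C, MII, Morula, ExpB and EarlyB, with no overlap between 2C and MII, nor between MII and Morula. For RING1 it was EarlyB, ExpB, Morula, 8C, MII, 2C, 16C and 4C, with no overlap between EarlyB and ExpB, nor between Morula and 8C. For BMI1 it was ExpB, Morula, EarlyB, 16C, 4C, 8C, 2C and MII, with no overlap between EarlyB and 16C, nor between 4C and 8C, nor between 2C and MII. For PCGF6 it was Morula, EarlyB, ExpB, 16C, 4C, 2C, 8C and MII, with no overlap between Morula and EarlyB. The other neighbours of these PRC1 genes overlapped. RNF2 was lowest in the blastocysts, where RING1 and BMI1 had their highest means.

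Because FPKM is per length, related genes can be set against each other within a library, where both values carry the same library scaling. The pseudocount of 1 still bears on the difference where a gene is low. The balance of 3 pairs was tested over the 8 stages with a permutation test of the F statistic (26 libraries, 100000 resamples, Benjamini-Hochberg over the 3). EZH2 minus EZH1, on the log2(FPKM + 1) scale, was 0.17 ± 0.20 at 4C (n = 3), 1.49 ± 0.42 in morulae (n = 3), 1.05 ± 0.20 in EarlyB (n = 3) and 0.23 ± 0.19 in ExpB (n = 4), and differed between stages (permutation p = 8e-05, adjusted p = 8e-05). RNF2 minus RING1 was 9.18 ± 0.07 at 8C (n = 4), 5.86 ± 0.50 in morulae (n = 3), 3.71 ± 0.43 in EarlyB (n = 3) and 5.09 ± 0.66 in ExpB (n = 4), and differed between stages (permutation p = 1e-05, the smallest that these resamples can give, adjusted p = 1.5e-05). Up to 16C RING1 had 0 reads in 10 of 16 libraries and at most 5 in any. There the pseudocount sets its term, so the difference follows RNF2 alone and its SD is not that of a measured ratio. The permutation p thus largely repeats the fall of RNF2 and is no separate support for a change of RING1. RNF2 nevertheless made up 95.1% ± 1.78 of the summed FPKM of this pair in EarlyB (n = 3), its lowest share. EarlyB is also the stage through which alone RING1 passed the filter for the limma tests. BMI1 minus PCGF6 was -3.07 ± 0.09 in MII (n = 2), -2.18 ± 0.42 at 8C (n = 4), -1.26 ± 0.18 in morulae (n = 3) and -0.07 ± 0.39 in ExpB (n = 4), where the genes stood about level (permutation p = 1e-05, again the smallest possible, adjusted p = 1.5e-05).

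**Figure D4:**
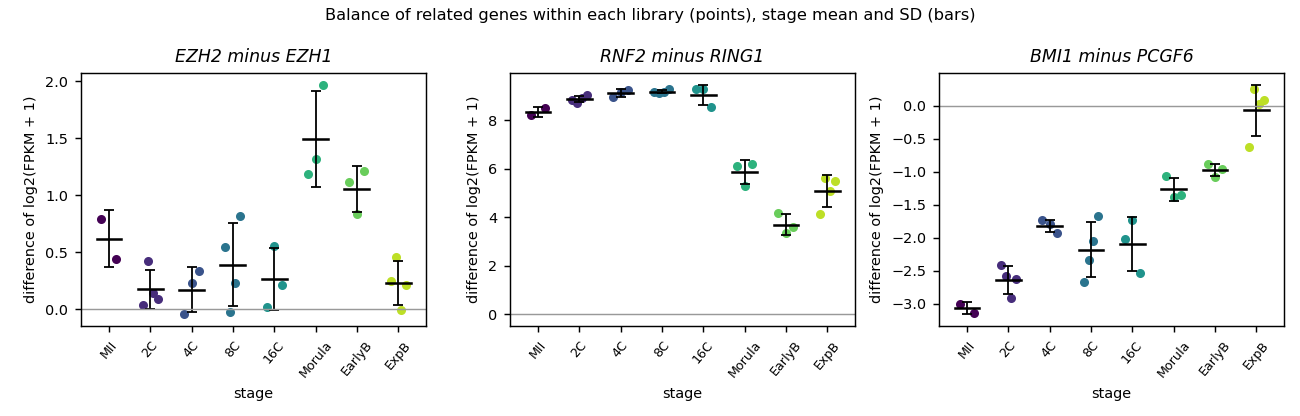
Difference of log2(FPKM + 1) between 2 related genes within each library (y axis) by stage (x axis); points are libraries, the long bar is the stage mean and the error bar the SD, and the grey line marks equal levels. RNF2 exceeds RING1 in every library by at least 3.34, while BMI1 minus PCGF6 moves from about -3.07 in MII to -0.07 in ExpB.

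The make-up of PRC1 was read from the other PCGF and CBX genes. PCGF1, the PCGF protein of the BCOR complex, held 91.2% ± 4.75 of the summed FPKM of the 6 PCGF genes in MII (n = 2), 81.7% ± 3.40 at 8C (n = 4), 62.1% ± 8.77 in morulae (n = 3) and 18.8% ± 2.82 in ExpB (n = 4). BMI1 went from 0.108% ± 0.105 in MII to 30.6% ± 5.23 in ExpB, and PCGF6 from 3.87% ± 1.63 to 31.9% ± 3.80. PCGF2, the closest relative of BMI1, averaged at most 0.0497 FPKM at any stage. PCGF1 itself fell from MII to ExpB, from 235 ± 49.6 to 18.1 ± 5.31 FPKM (-3.65, adjusted p = 5.3e-11). Of the CBX genes, whose proteins read H3K27 methylation, CBX8 held the largest mean share at every stage, with 90.3% ± 1.83 at 4C (n = 3) and 38.0% ± 7.94 in morulae (n = 3). CBX2 had 0.195% ± 0.338 and 31.1% ± 4.89 at 4C and in ExpB. CBX levels were low: CBX8 was at 5.25 ± 0.866 FPKM at 4C, and CBX7 averaged at most 0.127 at any stage. Shares are of the table's FPKM, whose gene lengths were not all recovered, and carry no test.

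**Figure D5:**
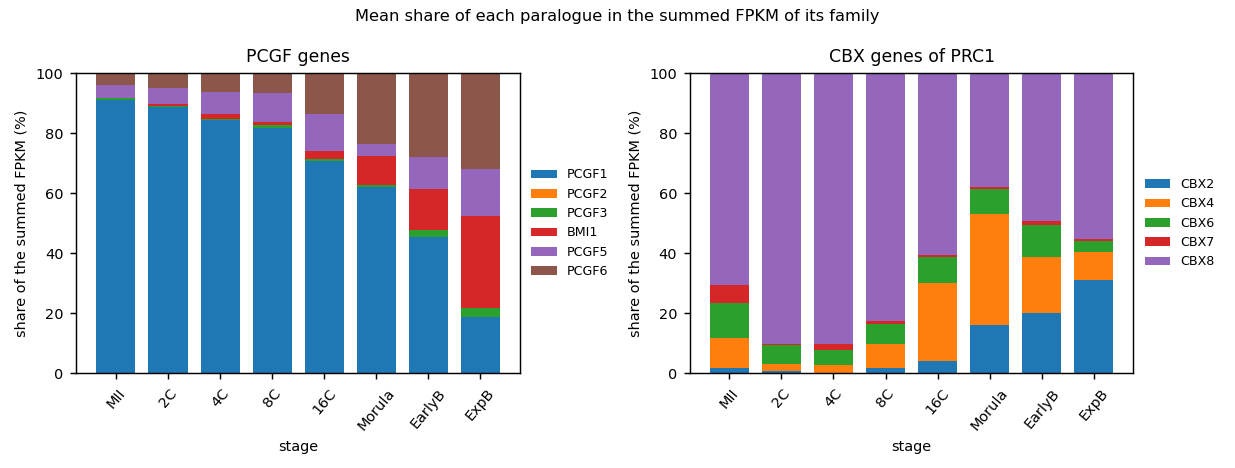
Mean share of each gene in the summed FPKM of the 6 PCGF genes (left) and of the 5 CBX genes of PRC1 (right) (y axis, percent) by stage (x axis). PCGF1 fills most of the bar up to the morula and has the largest share in EarlyB, and BMI1 and PCGF6 have larger shares from the morula on than at 8C.

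Other genes of the pathway were described from lists written from general knowledge. Of 9 listed PRC2 partners 7 were tested. From 8C to Morula 1 of the 7 rose and 2 fell (median difference -0.07, beside 0.28 over all genes), where 30.6% of all genes were higher and 19.1% lower. From MII to ExpB 2 rose and 3 fell (median -0.48 beside 0.33), where 32.8% of all genes were higher and 20.9% lower. With quantile normalization this split was 1 and 4, where 4073 of 15766 genes were higher and 4266 lower. AEBP2, a zinc finger partner of SUZ12, rose from 8.10 ± 2.18 to 59.1 ± 14.4 FPKM from 8C to Morula (2.73, adjusted p = 3.2e-08). RBBP7, a histone-binding subunit, fell from MII to ExpB, from 975 ± 556 to 59.2 ± 8.82 (-3.90, adjusted p = 1.4e-11), and so did its relative RBBP4, from 206 ± 58.7 to 59.8 ± 16.1. MTF2, which ties PRC2 to unmethylated CpG islands, fell from 134 ± 12.9 to 19.2 ± 2.30 (-2.74, adjusted p = 5.3e-12). PHF19 was in the table and below the filter, and EZHIP was not analysed here.

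Of 26 listed PRC1 subunits and partners 21 were tested. From 8C to Morula 4 rose and 4 fell (median -0.26 beside 0.28), where 30.6% of all genes were higher and 19.1% lower. From MII to ExpB 4 rose and 7 fell (median 0.06 beside 0.33), where 32.8% of all genes were higher and 20.9% lower. The first split was 5 and 9 of 23 on the TPM scale and 4 and 7 with quantiles, and the second 2 and 10 with quantiles. For all genes TPM gave 4823 and 4583 of 17979 in the first. Quantiles gave 3580 and 4058 of 15766 in the first and 4073 and 4266 in the second. L3MBTL2 and MGA, which share the variant complex of PCGF6, rose from 8C to Morula, L3MBTL2 from 1.4 ± 0.495 to 12.9 ± 3.41 FPKM (2.53, adjusted p = 3.2e-10) and MGA from 1.89 ± 0.0454 to 18.7 ± 0.903 (2.77, adjusted p = 5.6e-11). KDM2B, which brings the variant complex of PCGF1 to CpG islands, rose from 0.461 ± 0.0475 to 3.66 ± 0.826 (1.66, adjusted p = 1e-07). E2F6, YAF2 and BCOR, also listed, were not called in that step. E2F6 averaged 19.97 FPKM at 8C and 21.86 in morulae, YAF2 9.42 and 10.02, and BCOR 1.85 and 2.05. RNF2 fell in the same step, and a joint rise of a whole complex was not tested. Among those that fell from MII to ExpB were SCML2, from 41.8 ± 18.5 to 1.98 ± 0.267 (-3.78, adjusted p = 1.8e-11), SCMH1, from 13.5 ± 1.54 to 0.562 ± 0.160, and AUTS2, from 10.1 ± 0.327 to 0.934 ± 0.388. At 2C against MII CBX8 was the 1 gene called, from 1.14 ± 0.340 to 5.30 ± 1.41. The difference was 1.54, and under the threshold of size with a pseudocount of 5 (0.74). Without MII 1 it was 1.38, but that left 1 oocyte library, so no call is read from that fit.

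Enzymes that oppose Polycomb or work against its marks were described next. Of 18 listed 17 were tested. From 8C to Morula 7 of the 17 rose and 2 fell (median 0.49 beside 0.28), where 30.6% of all genes were higher and 19.1% lower. From MII to ExpB 7 rose and 5 fell (median 0.22 beside 0.33), where 32.8% of all genes were higher and 20.9% lower. The first split was 7 and 4 on the TPM scale and 5 and 4 with quantiles, and the second 6 and 6 with TPM, median-ratio and quantile scaling. The counts over all genes under these scalings are given above, with those of the 9 genes. KDM6A, which removes methyl groups from H3K27, rose from 1.52 ± 0.208 to 25.3 ± 6.51 FPKM from 8C to Morula (3.36, adjusted p = 5.1e-09). It rose at 16C as well, from 1.52 ± 0.208 to 5.41 ± 3.95, and that call was lost when 16C 3 was left out, with a pseudocount of 5 and when those 2 stages were fitted alone. SETD2, the H3K36 methyltransferase, rose from 8C to Morula, from 0.322 ± 0.116 to 12.3 ± 3.29 (3.3, adjusted p = 4.6e-13). ASXL1 and ASXL2, cofactors of the H2A deubiquitinase BAP1, rose from 1.34 ± 0.276 to 8.89 ± 1.08 and from 3.77 ± 0.443 to 14.5 ± 1.66, while ASXL3 fell from 6.74 ± 1.72 to 1.12 ± 0.674 (-1.89, adjusted p = 2.8e-07). KDM6B, the other H3K27 demethylase, was highest in EarlyB and rose there from Morula, from 0.557 ± 0.144 to 3.43 ± 0.649 (1.5, adjusted p = 4.2e-08).

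Of 50 listed genes known as Polycomb targets in embryonic stem cells, 49 were in the table and 27 passed the filter. From 8C to Morula 3 of the 27 rose and 4 fell (median -0.31 beside 0.28), where 30.6% of all genes were higher and 19.1% lower. From MII to ExpB 7 rose and 11 fell (median -0.18 beside 0.33), where 32.8% of all genes were higher and 20.9% lower. The first split was 3 and 11 with quantiles and 6 and 11 of 32 on the TPM scale. For all genes it was 3580 and 4058 of 15766 with quantiles and 4823 and 4583 of 17979 on the TPM scale. The 3 that rose from 8C to Morula were the primitive endoderm factor GATA6, from 0.190 ± 0.110 to 17.6 ± 3.0 FPKM (3.96, adjusted p = 8.1e-14), TBX3, from 0.196 ± 0.0736 to 14.5 ± 1.27, and MSX2, from 0.0336 ± 0.0360 to 7.55 ± 2.1. MSX2 stood at 70.1 ± 6.51 in ExpB. Among those that fell were PAX3, from 6.03 ± 2.63 to 1.01 ± 0.643, MSX1, from 33.0 ± 8.69 to 9.66 ± 5.56 (-1.76, adjusted p = 2.7e-05), and ISL1, from 9.0 ± 0.929 to 2.80 ± 0.382. These had transcripts in the oocyte, MSX1 at 53.3 ± 20.9 and ISL1 at 9.71 ± 4.52 in MII. HOXD1 fell at 2C against MII, from 9.56 ± 3.58 to 1.41 ± 0.365 (-2.1, adjusted p = 3.8e-06), and was listed at 0 in every ExpB library. CDKN2A, which encodes INK4A, was not analysed here.

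The genes whose stage means followed those of the members most closely were found among 10427 tested genes with a range of at least 1, by Pearson's r over the 8 stage means, as a description. For RNF2 they were GOLPH3L (r = 0.997), LNX2 (r = 0.997) and ORMDL1 (r = 0.996). For BMI1 they were ZDHHC20 (r = 0.997), SPIN1 (r = 0.996) and RPL9 (r = 0.995), and for PCGF6 WDR36 (r = 0.996), RAB33B (r = 0.995) and STAM (r = 0.994). For EED they were ZDHHC17 (r = 0.993), MIS12 (r = 0.991) and SIRT1 (r = 0.987), for SUZ12 MCCC2 (r = 0.990), PRPF39 (r = 0.989) and CDC16 (r = 0.983), and for EZH2 DOHH (r = 0.988), MRM3 (r = 0.988) and RNF122 (r = 0.981). For JARID2 they were EIF4G3 (r = 0.969), CELF6 (r = 0.963) and MEIS2 (r = 0.963), and for EZH1 DCLRE1B (r = 0.980), BAX (r = 0.980) and TOP3A (r = 0.973). For RING1 they were TRNAC-ACA_238 (r = 0.999), LRRC4 (r = 0.999) and TRNAW-CCA_165 (r = 0.998), and RING1 was near 0 before the morula. Among the members themselves the highest r over the 8 stage means was 0.936, for BMI1 and PCGF6, and the lowest -0.945, for EED and JARID2. The 8 points share their libraries within a stage, and stages follow one another.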

How the data were processed

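RNA was measured in 26 libraries of 8 stages, grouped by the labelled developmental stage. The authors deposited gene-level FPKM. Tools named in the submitters' processing notes, in no stated order, are featureCounts 2.0.1, fastp 0.23.4, HISAT2 2.1.0 and SAMtools 1.9. The genome build, the annotation, the strand setting and the depth: not given in the sources used here. Reads per library, and gene lengths where values were low enough, were worked out from the steps between low FPKM values. Between 99.7% and 100.0% of the low values of small RNA genes were whole reads within 0.05 reads. A length so found is the smallest that fits. Reads carry no molecular identifiers, and read limits cover counting error only.

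Genes that reached 1 FPKM in 2 or more libraries were fitted as log2(FPKM + 1) with limma 3.58.1 in R 4.3.3, with 8 stage means, a variance trend, and 18 residual and 4.6 prior degrees of freedom. The tests were two-sided, and p was adjusted by Benjamini-Hochberg over all genes within each of 9 contrasts. The fitting was checked on simulated data. The members and lists were chosen with earlier results of these data known. From the wider lists the text took its names from up to 4 called genes per direction with the largest difference in Morula against 8C and in ExpB against MII, and up to 2 in the other contrasts. For likeness of pattern, 3 genes per member were named, leaving out names that start with LOC. Genes named for their share, level or absence (PCGF2, CBX2, CBX7, PHF19) were chosen after their values were seen. Alternatives were other pseudocounts, filters and scalings, a replicate block, fits of 2 stages alone, and leaving out each library. No sequences or genome positions were used.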

Additional observations from a re-analysis of the deposited data

Results flagged for a closer look

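In 27 groups of 4 libraries, 1 for each of the 9 genes at 2C, 8C and ExpB, the highest or lowest library was compared with the rest. Chance singles out about 1 in 20 such groups, and 2 of the 27 were found, both at 2C. PCGF6 stood at 15.8 FPKM in 2C 1, where the other 3 libraries held 9.81 to 10.6. RING1 stood at 0.0542 in 2C 2 and was listed at 0 in the other 3, which is 3 reads, no more than a count of 0 allows.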

How the results depend on the processing

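Under 35 alternatives 17 of the 27 called differences of the 9 genes were called every time, and 0 were reversed. The same count was not made over all genes. With a pseudocount of 5, calls among the 9 went from 2 to 1 at 2C against MII and from 1 to 0 at ExpB against EarlyB. Over all genes the first went from 700 higher and 317 lower to 288 and 169, and the second from 733 and 2060 to 394 and 606. With that pseudocount the PRC1 subunits went from 8 to 5 at Morula against 8C and from 11 to 7 at ExpB against MII, the opposing enzymes from 9 to 4 and from 12 to 4, and the targets from 7 to 4 and from 18 to 8. Calls over all genes also fell, from 4817 higher and 3015 lower to 2598 and 1782 at Morula against 8C. At ExpB against MII they fell from 5174 and 3298 to 2781 and 2086. With a pseudocount of 0.1, calls among the 9 were 3 at 16C against 8C and 2 at ExpB against EarlyB, and targets 16 at Morula against 8C. On the TPM scale these were 3, 2 and 17, with 32 targets tested, and PRC1 subunits 14 of 23 at Morula against 8C. Over all genes the pseudocount of 0.1 gave 1208 higher and 741 lower at 16C against 8C. It gave 863 and 3347 at ExpB against EarlyB, and 6221 and 3852 at Morula against 8C. The counts over all genes with the 3 other scalings are given in the results. With median-ratio scaling the 9 had 1 call at 2C against MII and 2 at 16C against 8C. With quantile normalization they had 1, 2, and 2 at EarlyB against Morula, and targets 14 at Morula against 8C. With the 2 stages alone the 9 had 1 at 2C against MII and 0 at 16C against 8C, with fewer residual degrees of freedom. Over all genes these fits gave 545 higher and 144 lower, and 251 and 65. With a filter of 5 FPKM the 9 genes, of which 6 were tested, had 0 at ExpB against EarlyB. The targets then had 10 of 11 at ExpB against MII. For all 9880 genes tested these were 617 higher and 1635 lower, and 4060 and 2867.

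Fits without MII 1 or MII 2 leave 1 oocyte library, and their calls at 2C against MII are left out here. Leaving out each other library in turn gave at most 3 calls among the 9 at 2C against MII (without 16C 3). Without 16C 3 all genes gave 787 higher and 359 lower there, against 700 and 317 with all libraries. Leaving out each library gave 0 to 1 at 4C against 2C. The 1 came without 2C 1, where all genes gave 44 higher and 5 lower. At 8C against 4C it gave 0, and at Morula against 16C 6 to 7. At 16C against 8C it gave 1 to 4, where all genes gave 874 and 317 with all libraries. There were 2 without 8C 4 (all genes 778 and 281) or 16C 2 (1000 and 427). There were 3 without 8C 1 (790 and 343) or 8C 3 (851 and 427), and 4 without 16C 1 (1238 and 535). At EarlyB against Morula it gave 2 to 4. There were 2 without Morula 3 (all genes 2254 and 1831) or EarlyB 2 (2325 and 1859). At ExpB against EarlyB it gave 1 to 2. There were 2 without EarlyB 1 (all genes 721 and 1927) or ExpB 1 (779 and 2200). At Morula against 8C it gave 6 to 7, with 6 without 8C 2 (all genes 4822 and 3014) or Morula 3 (4772 and 3109). At ExpB against MII it gave 6, fits without MII 1 or MII 2 aside. All genes gave 5109 and 3286 there without ExpB 1. PRC1 subunits ranged over 8 to 11 and 10 to 12, opposing enzymes over 8 to 9 and 12, and targets over 7 to 10 and 16 to 19, at Morula against 8C and ExpB against MII, and PRC2 partners stayed at 3 and 5. Over the 8 stages 8 to 9 of the 9 differed. Of all genes 14488 of 15547 did without EarlyB 3 and 14830 of 15704 without 16C 3. The mean of Morula to ExpB minus that of MII to 8C lay between 0.51 and 0.64 for EZH2 minus EZH1, -4.08 and -3.89 for RNF2 minus RING1, and 1.62 and 1.72 for BMI1 minus PCGF6.

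With the replicate number as a block, calls among the 9 at 16C against 8C were 2 in place of 1. Over all genes they were 850 higher and 297 lower in place of 874 and 317. Deviations from the stage mean had a median r of 0.0044 between same-numbered libraries of different stages (80 pairs, -0.15 to 0.40). Between other numbers it was -0.0048 (214 pairs, -0.40 to 0.34). In 10 of 26 libraries the mean r was highest with libraries of their own number, a count that was not tested. The labels do not say that a number marks a batch, and the numbers are not treated as a pairing. Where MII is compared, 2 libraries limit what can be shown, and RING1 rests on at most 64 reads per library.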

Other observations

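Around the early blastocyst, genes beside the 9 moved in steps that the account of Morula and ExpB passes over. FOXK1, a forkhead partner of the deubiquitinase BAP1, rose from Morula to EarlyB, from 0.571 ± 0.485 to 5.77 ± 1.06 FPKM (2.14, adjusted p = 9.1e-09), and fell again to 1.88 ± 0.556 in ExpB (-1.24, adjusted p = 1e-05). KDM6B fell from EarlyB to ExpB, to 1.19 ± 0.409 (-1.02, adjusted p = 5.6e-06). The differences of ExpB against EarlyB were under 1 in size with median-ratio scaling for FOXK1 (-0.92) and KDM6B (-0.74), and with quantile normalization (-0.86 and -0.57). For KDM6B the size was also under 1 without EarlyB 1 (-0.91), ExpB 2 (-0.99), ExpB 3 (-0.96) or ExpB 4 (-0.99). GATA2, a trophoblast factor and listed Polycomb target, rose from Morula to EarlyB, from 0.611 ± 0.271 to 14.9 ± 4.26 (3.28, adjusted p = 1.9e-07), and fell to 5.19 ± 3.64 in ExpB (-1.47, adjusted p = 0.0014). EZH2 and RING1 also had their ExpB means below those of EarlyB, as given in the results. PCGF1 fell in both steps, from 149 ± 27.4 to 56.3 ± 15.9 (-1.42, adjusted p = 0.00011) and then to 18.1 ± 5.31 (-1.59, adjusted p = 2.4e-05). WDR5 fell from EarlyB to ExpB, from 15.5 ± 1.38 to 4.85 ± 1.18 (-1.51, adjusted p = 3e-05). Reads assigned per library were 16 to 19.9 in EarlyB and 19.3 to 25.4 in ExpB, in units of 1e6, and the part of depth in these values was not tested. The adjusted p-values are from limma.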
